A study of Homo sapiens with 4 samples.

Results

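The genes described here run mitosis: the cyclins and kinases that start it, the anaphase-promoting complex (APC) activators and separase that end it, the mitotic kinesins, condensin, spindle proteins and the cytokinesis machinery. The list named 54 genes, grouped by function, and it was drawn up with earlier results of these data known. Of these, 50 were measured, out of 10921 named genes measured on the arrays, where measured means a detection p-value under 0.01 on at least 1 array. The detection p-value of a probe is the share of negative control beads on that array that were at least as bright. All 50 were detected on all 4 arrays. The remaining 4, FZR1, UBE2S, CIT and NCAPH, were not detected on any array, and the lowest detection p-value among their probes was 0.0156 (FZR1), 0.0935 (UBE2S), 0.0935 (CIT) and 0.0234 (NCAPH).

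RNA came from A549, an established human lung adenocarcinoma line, and was hybridised to Illumina HumanHT-12 BeadChips. The control was 1 array of cells transfected with a non-targeting siRNA, and the siEPEL group was 3 arrays, each of cells given a different siRNA against the long noncoding RNA EPEL (siRNA 1, siRNA 2 and siRNA 3 below). Every siRNA was used at 50 nM with a cationic lipid reagent, and knockdown was assayed at 48 h per the labels, so both groups had gone through transfection. The comparison asks which transcripts differ once EPEL is targeted. None of the probe names was EPEL (0 of 47228 probes), so the knockdown itself was not analysed here, and the labels name no separate cultures behind an siRNA. The mean raw signal lay between 381 and 404 per array, and between 16520 and 17106 probes were detected. All 7 epithelial marker genes listed for these cells (keratins, EPCAM, CDH1 and CLDN4) were detected, against 3 of 7 leukocyte, 3 of 6 fibroblast and 0 of 5 endothelial markers. PTPRC, the defining leukocyte marker, was not detected on any array. Since RNA was measured in bulk, fewer cells in mitosis and less mitotic RNA per cell cannot be told apart.

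Mitosis is started by cyclin-dependent kinase CDK1 bound to A- and B-type cyclins, which the phosphatases of the CDC25 family switch on and the kinases WEE1 and PKMYT1 hold back. Aurora and Polo kinases and motor proteins of the kinesin family build the spindle, condensin compacts the chromosomes, and the APC then marks securin and cyclin B for destruction so that separase can part the sister chromatids. Many of these genes are transcribed in a wave that peaks in G2 and mitosis. Their promoters are known for a short element called the cell cycle genes homology region, bound by the MuvB core of the DREAM complex and of complexes with MYBL2 and FOXM1, and for boxes bound by the factor NF-Y.

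These elements were searched for in the promoters of the members. RefSeq promoter windows of 300 bases, 250 before and 50 after each annotated start (build GRCh38.p14), were found for 48 of the 54 members, as 64 windows. The homology region was searched as TTTGAA or TTCGAA and the NF-Y box as CCAAT, on both strands. TTTGAA or TTCGAA stood in 42 of the 64 member windows (65.6%), against 16.4% of all 35116 windows. CCAAT stood in 65.6% of member windows and 34.6% of all windows. TTTGAA and CCAAT together were found in 46.9% of member windows and 5.90% of all. Within 50 bases of the start, a range chosen after the positions were seen, the homology region stood in 48.4% of member windows and 5.01% of all. The E2F motif TTTCGCGC was in 1 of 48 member genes, CDK1, whose 2 overlapping windows hold the same site. That is 2.08%, against 0.630% of all genes with a window and 1.28% of the measured ones. TTTGGCGC was in 2 of 48, KIF15 and NUSAP1 (4.17%, against 0.795% of all genes with a window and 1.34% of the measured ones). The stretch from position -150 to 50 relative to the start is shown for the 4 members that were furthest below the control with siRNA 1. CCNB2 and PLK1 are shown as examples that hold both elements. KIF2C is shown because it was below the control with every siRNA and its window holds neither element as searched. Capitals mark the homology region and the NF-Y box on either strand. An NF-Y box of the opposite strand reads ATTGG as printed, and in MKI67 such a box overlaps a homology region.
ANLN, chr7:36389712-36389911, plus strand: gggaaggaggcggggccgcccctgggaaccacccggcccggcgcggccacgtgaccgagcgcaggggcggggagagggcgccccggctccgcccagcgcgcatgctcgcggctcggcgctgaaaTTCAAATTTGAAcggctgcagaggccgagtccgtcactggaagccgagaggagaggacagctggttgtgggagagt
KIF20B, chr10:89701440-89701639, plus strand: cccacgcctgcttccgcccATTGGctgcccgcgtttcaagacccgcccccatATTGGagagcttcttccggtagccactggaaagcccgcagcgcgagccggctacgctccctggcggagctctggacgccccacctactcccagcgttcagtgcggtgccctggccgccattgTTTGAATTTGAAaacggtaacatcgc
GTSE1, chr22:46296720-46296919, plus strand: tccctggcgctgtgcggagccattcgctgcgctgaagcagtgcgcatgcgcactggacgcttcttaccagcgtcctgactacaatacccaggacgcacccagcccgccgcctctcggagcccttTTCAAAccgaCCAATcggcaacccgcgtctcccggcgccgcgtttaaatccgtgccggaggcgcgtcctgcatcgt
MKI67, chr10:128126374-128126573, minus strand: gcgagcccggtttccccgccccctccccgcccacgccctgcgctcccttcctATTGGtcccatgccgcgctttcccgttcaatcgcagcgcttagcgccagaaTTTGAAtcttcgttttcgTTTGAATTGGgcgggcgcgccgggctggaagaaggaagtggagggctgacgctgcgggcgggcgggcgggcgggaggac
CCNB2, chr15:59104996-59105195, plus strand: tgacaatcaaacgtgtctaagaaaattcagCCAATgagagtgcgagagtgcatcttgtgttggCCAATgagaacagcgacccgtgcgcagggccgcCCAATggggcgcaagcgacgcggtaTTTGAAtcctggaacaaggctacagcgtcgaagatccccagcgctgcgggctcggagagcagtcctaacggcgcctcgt
PLK1, chr16:23678739-23678938, plus strand: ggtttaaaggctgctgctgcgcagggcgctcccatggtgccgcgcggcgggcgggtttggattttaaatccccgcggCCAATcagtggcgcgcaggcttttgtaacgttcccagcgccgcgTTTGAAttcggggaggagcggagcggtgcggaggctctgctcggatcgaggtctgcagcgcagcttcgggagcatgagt
KIF2C, chr1:44739687-44739886, plus strand: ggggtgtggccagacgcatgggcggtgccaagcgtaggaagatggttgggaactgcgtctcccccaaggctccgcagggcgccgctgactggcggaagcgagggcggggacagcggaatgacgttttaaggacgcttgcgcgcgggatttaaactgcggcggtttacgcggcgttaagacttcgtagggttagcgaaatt

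In CCNB2 the 3 CCAAT boxes of this stretch began at positions -120, -87 and -54 from the start and the TTTGAA at -29. In PLK1 a CCAAT at -73 and a TTTGAA at -29 gave a similar order, while ANLN held TTTGAA on both strands side by side and no CCAAT. Members with and without TTTGAA or TTCGAA in a window both lay below the control. With siRNA 1 the median log2 ratio to the control was -0.40 for the 36 measured members with either and -0.46 for the 8 without. Among all measured genes whose windows hold either the median was -0.03. Other forms of the homology region were not searched, so absence here means absence of these letters only. These are descriptions of letters in a window and of medians, with no test.

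As a group the mitotic genes lay below the control array, mostly with siRNA 1. With siRNA 1 all 50 measured members were below the control, against 49.7% of all measured genes, and their median level was 75.2% of the control, a log2 ratio of -0.41. With siRNA 2 it was 34 of 50 (49.7% of all genes) and a median of 93.2% of the control. With siRNA 3 it was 43 of 50 (50.3% of all genes) and 90.9% of the control. The mean of the 3 medians was -0.22 ± 0.17 (SD, 3 siRNAs) on the log2 scale, beside 0.00 ± 0.00 for all genes. The median log2 fold change of the members was -0.22 over all siRNAs and -0.11 when siRNA 1 was left out.

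No member passed the test between siEPEL and control. In limma, 0 of 18200 probes were lower and 0 were higher at a Benjamini-Hochberg adjusted p under 0.05 (0% called in each direction), and every member had an adjusted p of 1.00. At an unadjusted p under 0.05 the count was 0 of the 50 members, against 0.778% of all genes on the lower and 0.934% on the higher side. The smallest unadjusted p of a member in limma was 0.106 (SMC2). That count of 0 depends on the probe that represents a gene. Of the 68 tested member probes 2 were under 0.05, both lower and both second probes, of AURKA (unadjusted p 0.0309) and UBE2C (unadjusted p 0.0282) in limma. Over all 18200 probes it was 382. The median standard error of a member's log2 fold change was 0.23, against a median log2 fold change of -0.22. The spread behind that error comes in part from the 3 siEPEL arrays, which differed in siRNA. The rest comes from a prior that limma estimates over all tested probes. The arrays carried 2 degrees of freedom and the prior 6.83. The lone control was assumed to vary as the siEPEL arrays do.

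**Figure D1:**
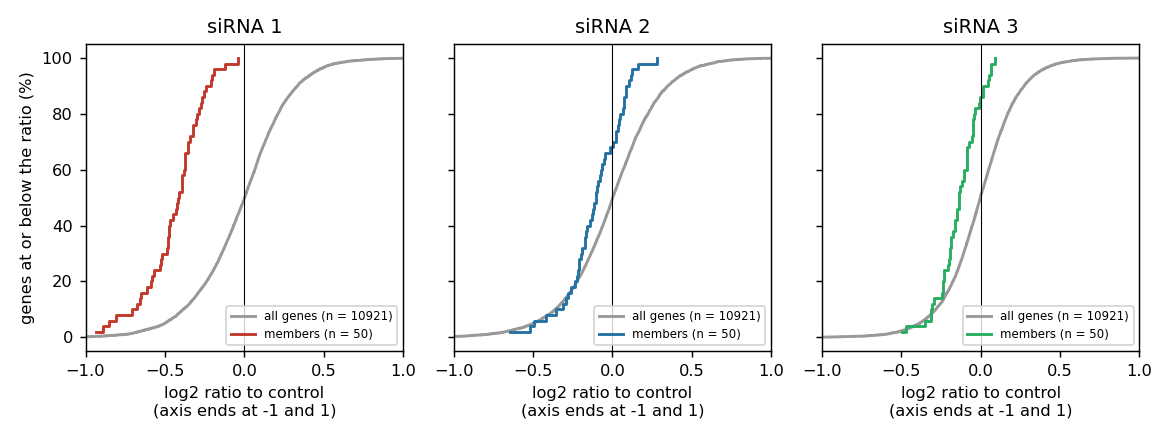
Cumulative share of genes (percent, vertical axis) at or below each log2 ratio to the control array (horizontal axis), for the 50 measured members and for all 10921 measured genes, 1 panel per siRNA. With siRNA 1 the curve of the members lies wholly left of 0, and with siRNAs 2 and 3 it crosses 0 after 34 and 43 of the 50 members.

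In 27 of the 50 members all 3 siRNAs were below the control, against 20.3% of all genes, and in 0 of the 50 all 3 were above it, against 20.5%. The 3 ratios share the single control array, and each gene is counted by 1 probe. The array with the lowest level among the 4 was that of siRNA 1 in 44 members, against 28.8% of all genes. It was that of siRNA 2 in 4 members (CDC25B, AURKA, PKMYT1 and NUSAP1; 27.5% of all genes) and that of siRNA 3 in 2 (BORA and PTTG1; 23.3%). The control array was lowest in 0 members, against 20.5% of all genes. By size, 10 members (20.0%) were at least 1.5-fold below the control with siRNA 1, against 3.22% of all genes. They were CCNA2, PLK4, WEE1, KIF20B, ANLN, ECT2, GTSE1, NCAPG2, SMC2 and MKI67. The list depends on the cutoff and the probe: SMC2 was just inside it at 0.667 of the control and CCNB1 just outside at 0.668. Second probes of KIF23, DLGAP5 and UBE2C were also that low with siRNA 1, where the UBE2C probe was not detected. With siRNA 2 ECT2 alone was that low (2.00%, against 3.26% of all genes), and with siRNA 3 it was 0 members (1.21% of all genes). The second AURKA probe, not counted here, was at 0.605 of the control with siRNA 2. No member was at least 1.5-fold above the control with siRNA 1, 2 or 3, where 1.90%, 2.48% and 0.961% of all genes were.

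**Figure D2:**
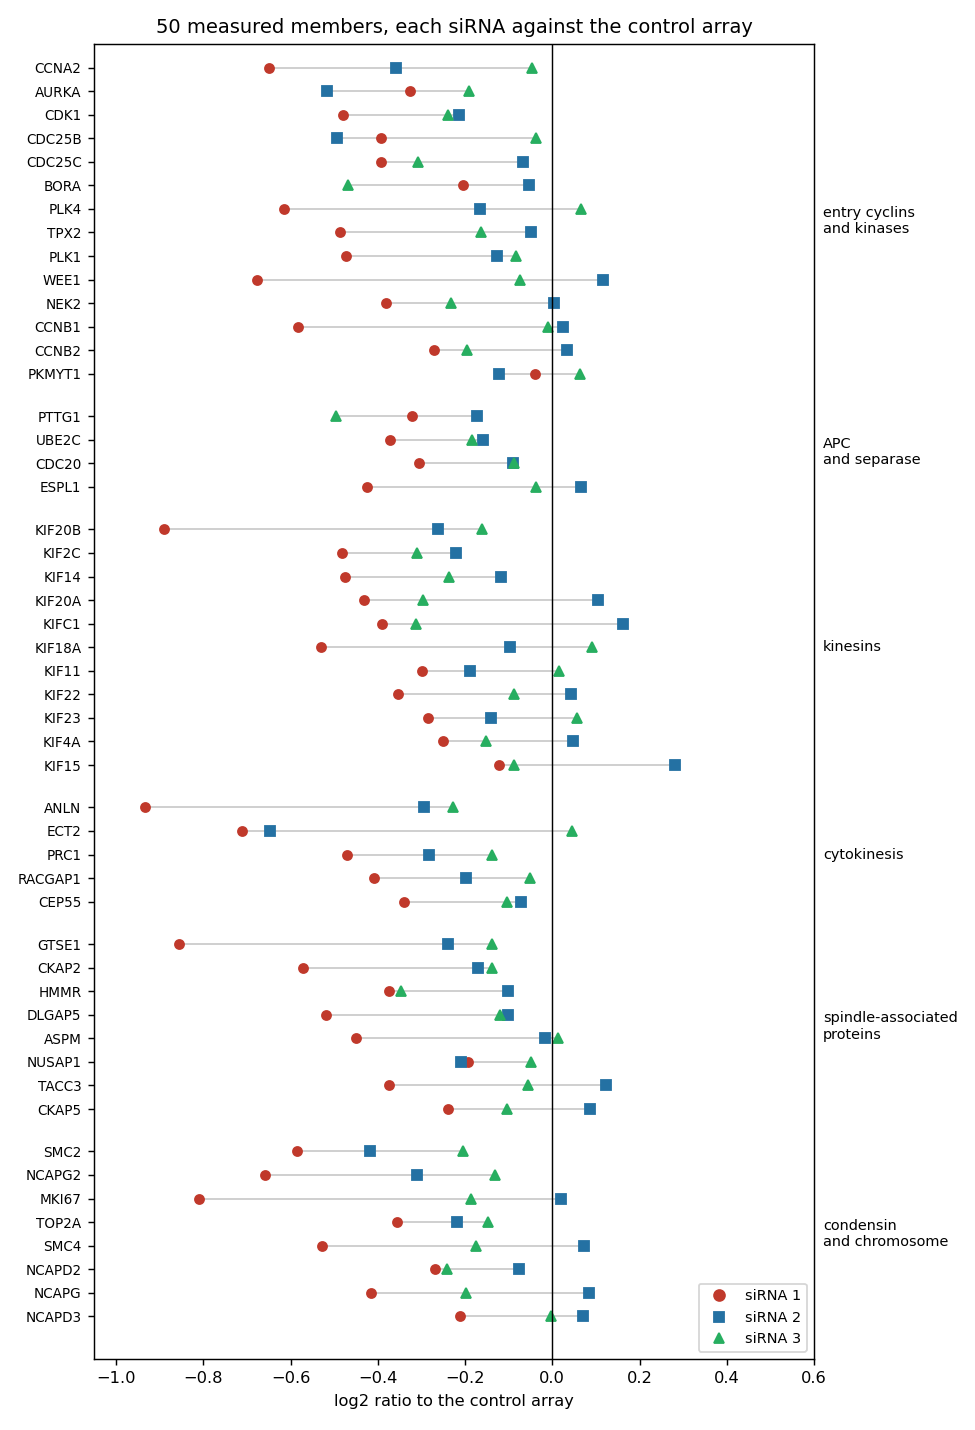
Log2 ratio to the control array (horizontal axis) of each of the 50 measured members (rows, ordered within each functional group by log2 fold change), with 1 symbol per siRNA and a grey line joining the lowest and highest. All siRNA 1 circles lie left of 0, from ANLN at -0.93 to PKMYT1 at -0.04.

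Differences between the siEPEL arrays do not use the control. The members were lower with siRNA 1 than with siRNA 2 in 46 of 50 cases, with a median log2 difference of -0.33, and lower than with siRNA 3 in 48 of 50, with a median log2 difference of -0.29. Over all genes these counts were 5561 and 5447 of 10921. In 44 members (88.0%) siRNA 1 was below both other siRNAs, against 35.4% of all genes. siRNA 2 was below both others in 4 members (33.1% of all genes) and siRNA 3 in 2 (31.4%). siRNA 2 and siRNA 3 differed from each other by a median of 0.03, with siRNA 2 lower in 22 of 50 (over all genes, 5353 of 10921). The medians over all genes of these 3 differences were -0.01, 0.00 and 0.01. With 1 array per siRNA there is no replicate check on them.

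**Figure D3:**
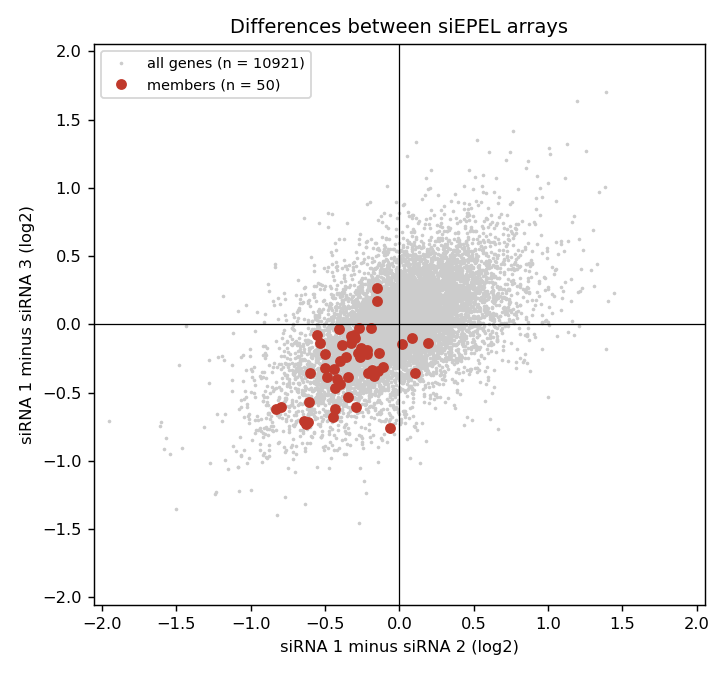
Log2 difference between the arrays of siRNA 1 and siRNA 2 (horizontal axis) and of siRNA 1 and siRNA 3 (vertical axis) for the 50 members (large points) over all 10921 measured genes (small points). Of the members, 44 lie below 0 on both axes, where siRNA 1 is below both others.

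Among the cyclins and kinases of mitotic entry, all 14 listed genes were measured, all 14 were below the control with siRNA 1 (median log2 ratio -0.43), 10 with siRNA 2 and 12 with siRNA 3, and 0 passed the test. Of all genes, 49.7%, 49.7% and 50.3% were below the control with siRNAs 1, 2 and 3. The same shares stand beside the group counts that follow. CCNA2, the cyclin of S phase and early mitosis, had log2 levels of 10.29 (control), then 9.64 (siRNA 1), 9.93 (siRNA 2) and 10.24 (siRNA 3), and levels are listed in this order from here on. These equal 0.637, 0.780 and 0.968 of the control level, and limma gave a log2 fold change of -0.35 ± 0.26 (SE, 1 control against 3 siEPEL arrays). Its level was lowest with siRNA 1, then siRNA 2, and with siRNA 3 it was within 0.05 of the control. AURKA, the Aurora kinase of the spindle poles, had log2 levels of 11.73 (control), 11.41, 11.22 and 11.54, and a log2 fold change of -0.34 ± 0.22. Its second probe gave -0.55 ± 0.21, with log2 ratios of -0.47, -0.73 and -0.46 and an adjusted p of 1.00 in limma. Both AURKA probes were lowest with siRNA 2.

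CDC25B, a phosphatase that activates CDK1, had the same order as AURKA, with log2 ratios of -0.39, -0.49 and -0.04. CDK1 itself was below the control with every siRNA by its first probe, at -0.48, -0.21 and -0.24, a log2 fold change of -0.31 ± 0.21 (SE). Its second probe lay at -0.42, -0.10 and 0.07, a log2 fold change of -0.15 ± 0.24. The mitotic cyclins CCNB1 and CCNB2 were both above the control with siRNA 2: CCNB1 lay at -0.58, 0.03 and -0.01 and CCNB2 at -0.27, 0.03 and -0.19. WEE1, the kinase that restrains CDK1, showed the widest gap between siRNAs of this group, at -0.68, 0.12 and -0.07. PLK4, which controls centriole duplication, lay at -0.62, -0.17 and 0.07, and PLK1, the Polo kinase of mitotic progression, at -0.47, -0.13 and -0.08. TPX2, which activates Aurora A on the spindle, lay at -0.49, -0.05 and -0.16. BORA, which helps Aurora A activate PLK1, was lowest with siRNA 3, at -0.20, -0.05 and -0.47. The phosphatase CDC25C (-0.26 ± 0.22) and the centrosomal kinase NEK2 (-0.20 ± 0.22) had log2 fold changes below 0 as well. The further probes of CDC25C gave -0.03 ± 0.22 and -0.05 ± 0.21. PKMYT1, the membrane-bound inhibitor of CDK1, was nearest the control, with log2 levels of 7.72 (control), 7.68, 7.60 and 7.78 and a log2 fold change of -0.03 ± 0.20. Its second probe gave -0.21 ± 0.20.

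**Figure D4:**
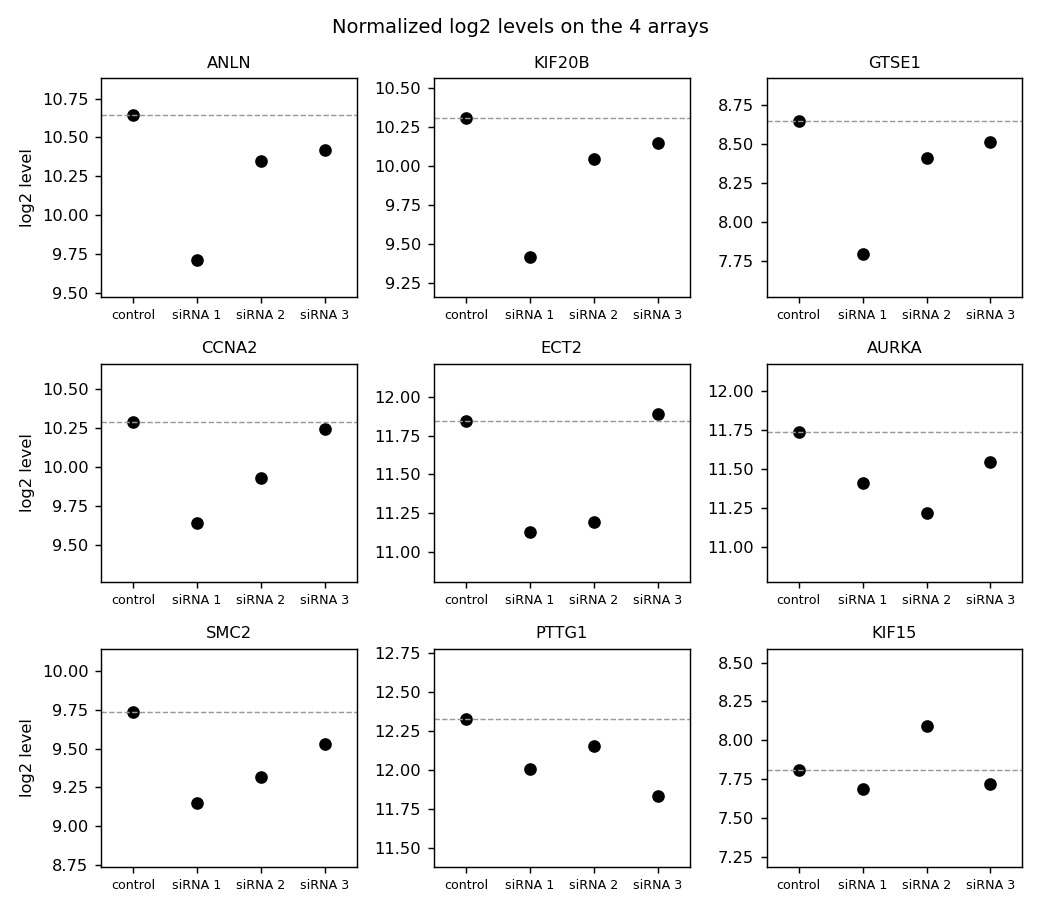
Normalized log2 level (vertical axis, the same span in every panel) on the control array and the arrays of siRNAs 1, 2 and 3 for 9 members, 1 array per point, with a dashed line at the control level. ANLN, KIF20B and GTSE1 are lowest with siRNA 1, AURKA with siRNA 2 and PTTG1 with siRNA 3, while KIF15 is above the control with siRNA 2.

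Of the 6 genes of APC control and chromatid separation, 4 were measured, and all 4 were below the control with siRNA 1 (median -0.35), 3 with siRNA 2 and 4 with siRNA 3. PTTG1, the securin that holds separase inactive, had log2 levels of 12.33 (control), 12.01, 12.16 and 11.83, a log2 fold change of -0.33 ± 0.22 (SE), and -0.36 ± 0.22 by its second probe. All 3 siEPEL arrays lay below the control, and the lowest of them differed between the probes: siRNA 3 by the first and siRNA 1 by the second. UBE2C, a ubiquitin-conjugating enzyme of the APC, had levels of 11.54 (control), 11.17, 11.38 and 11.36 and a log2 fold change of -0.24 ± 0.21. A dimmer UBE2C probe, detected on every array except that of siRNA 1, gave -0.54 ± 0.21, with an adjusted p of 1.00 in limma. CDC20, the APC activator of metaphase, lay at -0.31, -0.09 and -0.09. ESPL1, separase itself, had the highest log2 fold change of the group, -0.13 ± 0.24, with log2 levels of 7.90 (control), 7.48, 7.97 and 7.87.

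All 11 mitotic kinesins were measured, and all 11 were below the control with siRNA 1 (median -0.39), 6 with siRNA 2 and 8 with siRNA 3. The 6 of 11 with siRNA 2 (54.5%) was near the 49.7% of all genes. The kinesins were lower with siRNA 1 than with both other siRNAs in 11 of 11, against 35.4% of all genes. KIF20B, a kinesin of the late mitotic midzone, had log2 levels of 10.31 (control), 9.42, 10.05 and 10.15. These equal 0.539, 0.834 and 0.894 of the control level, with a log2 fold change of -0.44 ± 0.29 (SE). KIF2C, which depolymerises microtubules at the centromere, had levels of 9.43 (control), 8.95, 9.21 and 9.12 and a log2 fold change of -0.34 ± 0.21, with the 3 siRNAs closer to one another than for KIF20B. KIF14, which binds citron kinase and PRC1 in cytokinesis, lay at -0.48, -0.12 and -0.24. KIF11, which slides spindle poles apart, lay at -0.30, -0.19 and 0.01, and KIF18A, which damps chromosome movement, at -0.53, -0.10 and 0.09.

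The kinesins KIF20A and KIFC1, acting at the midzone and at the poles, were above the control with siRNA 2 and below it with the others, at -0.43, 0.11 and -0.30 and at -0.39, 0.16 and -0.31. KIF22 and KIF4A, which bind chromosomes, lay at -0.35, 0.04 and -0.09 and at -0.25, 0.05 and -0.15. KIF23, the motor of the centralspindlin complex, had a log2 fold change of -0.12 ± 0.22 and of -0.26 ± 0.32 by its second probe. KIF15, a partner of KIF11 in keeping the spindle bipolar, was the 1 member of 50 with a log2 fold change above 0. Over all genes, 5593 of 10921 had a log2 fold change below 0. The log2 levels of KIF15 were 7.81 (control), 7.69, 8.09 and 7.72, a log2 fold change of 0.02 ± 0.23, and it was above the control with siRNA 2 alone.

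Other kinesins and kinesin light chains, many of them known for carrying cargo, were listed for comparison. The list also holds KIF2A, a microtubule depolymerase of the family of KIF2C that acts at spindle poles, with log2 ratios of -0.17, -0.11 and -0.10. Of 24 listed, 17 were measured. With siRNA 1 10 of the 17 were below the control (58.8%, against 49.7% of all genes), with a median log2 ratio of -0.08. With siRNAs 2 and 3 the medians were 0.03 and -0.08. siRNA 1 was the lowest siRNA in 6 of 17 (35.3%, against 35.4% of all genes). The list ran from KIF5C at -0.47 ± 0.20 (SE) to KLC1, a kinesin light chain, at 0.25 ± 0.28. KIF5C was detected on 2 of the 4 arrays, so its value rests on levels near background. KLC1 lay at 0.68, 0.03 and 0.04. These values stand beside those of the mitotic kinesins as a description, and the difference between the lists was not tested.

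Of the 6 cytokinesis genes, 5 were measured, and all 5 were below the control with siRNAs 1 and 2 and 4 with siRNA 3. Their median log2 ratios were -0.47, -0.28 and -0.10. ANLN, the anillin scaffold of the contractile ring, had the lowest log2 fold change of all members. Its log2 levels were 10.65 (control), 9.71, 10.35 and 10.42, or 0.523, 0.815 and 0.854 of the control level, with a log2 fold change of -0.49 ± 0.29 (SE). ECT2, the exchange factor that activates RhoA at the cell equator, had levels of 11.84 (control), 11.13, 11.20 and 11.89 and a log2 fold change of -0.44 ± 0.30. Its levels with siRNAs 1 and 2 were close together and low, while siRNA 3 lay just above the control. PRC1, which bundles midzone microtubules, lay at -0.47, -0.28 and -0.14, and RACGAP1, the partner of KIF23 in centralspindlin, at -0.41, -0.20 and -0.05. CEP55, which recruits the abscission machinery, was nearest the control, with levels of 10.94 (control), 10.60, 10.86 and 10.83 and a log2 fold change of -0.17 ± 0.21.

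All 8 spindle-associated proteins were measured, and all 8 were below the control with siRNA 1 (median -0.41), 6 with siRNA 2 and 7 with siRNA 3. GTSE1, a microtubule-binding protein expressed in G2, had log2 levels of 8.65 (control), 7.79, 8.41 and 8.51, or 0.553, 0.847 and 0.908 of the control level, with a log2 fold change of -0.41 ± 0.29 (SE). CKAP2, a spindle protein, had levels of 9.18 (control), 8.61, 9.01 and 9.04 and a log2 fold change of -0.29 ± 0.24, while its second probe gave 0.03 ± 0.24. CKAP5, a microtubule polymerase, had the highest log2 fold change of the group, -0.09 ± 0.22, with levels of 11.85 (control), 11.61, 11.93 and 11.74. Its second probe was above the control with every siRNA and gave 0.14 ± 0.20. CKAP2 and CKAP5 were the 2 members whose probes had log2 fold changes of opposite sign.

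HMMR, a microtubule-associated hyaluronan receptor, and DLGAP5, a spindle assembly factor, lay at -0.37, -0.10 and -0.35 and at -0.52, -0.10 and -0.12. By their second probes both were above the control with siRNA 2, HMMR at -0.40, 0.15 and -0.26 and DLGAP5 at -0.61, 0.21 and -0.15. NUSAP1, which binds microtubules near chromatin, was close to even across siRNAs by its second probe (-0.23, -0.25 and -0.24) and lay at -0.19, -0.21 and -0.05 by its first. ASPM, a protein of the spindle poles, was below the control mainly with siRNA 1, at -0.45, -0.02 and 0.01. TACC3, which stabilises spindle fibres together with CKAP5, lay at -0.38, 0.12 and -0.06.

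Of the 9 condensin and chromosome genes, 8 were measured, and all 8 were below the control with siRNAs 1 and 3 and 4 with siRNA 2. Their median log2 ratios were -0.47, -0.03 and -0.18. With siRNA 2 the 4 of 8 (50.0%) was near the 49.7% of all genes. SMC2, a core ATPase of both condensin complexes, had log2 levels of 9.73 (control), 9.15, 9.32 and 9.53, a log2 fold change of -0.40 ± 0.22 (SE), and -0.35 ± 0.24 by its second probe. NCAPG2, a subunit of condensin II, had levels of 9.67 (control), 9.01, 9.36 and 9.54 and a log2 fold change of -0.37 ± 0.25. Both genes showed the order siRNA 1, siRNA 2, siRNA 3 from low to high. NCAPD3, another condensin II subunit, had the highest log2 fold change of the group, -0.05 ± 0.21, with levels of 8.41 (control), 8.20, 8.48 and 8.41. SMC4, the partner of SMC2, lay at -0.53, 0.07 and -0.17, and its second probe gave a log2 fold change of -0.01 ± 0.23. The condensin I subunits NCAPG and NCAPD2 lay at -0.41, 0.08 and -0.20 and at -0.27, -0.08 and -0.24. TOP2A, the topoisomerase that untangles chromosomes, lay at -0.36, -0.22 and -0.15. MKI67, the proliferation marker that coats mitotic chromosomes, had levels of 6.72 (control), 5.91, 6.74 and 6.53, low with siRNA 1 and within 0.02 of the control with siRNA 2. It was a dim probe: the lowest level detected on the siRNA 1 array was 5.58. Its log2 fold change of -0.33 became -0.22 without background correction and -0.40 in the authors' table.

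**Figure D5:**
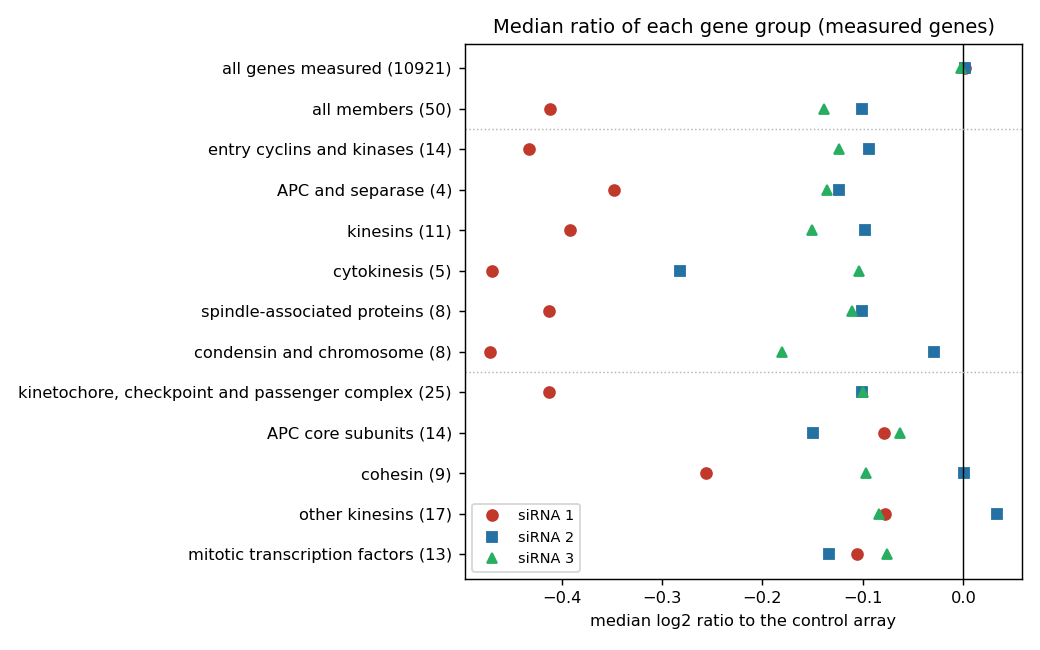
Median log2 ratio to the control array (horizontal axis) of each gene group (rows, with the number of genes measured), 1 symbol per siRNA. The upper rows are all genes and all members, the middle rows the 6 groups of members and the lower rows other lists. In every group of members the siRNA 1 median is the lowest of the 3, from -0.35 to -0.47.

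Within the members, 17 genes had more than 1 tested probe. Their 18 further probes gave medians of -0.43, -0.11 and -0.17 with siRNAs 1, 2 and 3. With siRNA 1, 16 of the 18 were below the control, against 49.7% of all genes by 1 probe each. Of the 18, 9 were below the control with all 3 siRNAs, against 20.3% of all genes. Probes of a gene share its RNA and its arrays, so they check the probe and not the sample.

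Other genes of the mitotic pathway were taken from 4 lists that hold no member, and 0 of their genes passed the limma test in either direction. The kinetochore, spindle checkpoint and passenger complex genes (25 of 25 measured) had medians of -0.41, -0.10 and -0.10, beside -0.41, -0.10 and -0.14 for the members. Of the 25, 23 were below the control with siRNA 1, against 49.7% of all genes. They ran from SKA3, a kinetochore-microtubule coupler, at -0.53 ± 0.21 (SE) to MAD1L1, a checkpoint protein, at 0.19 ± 0.20. Core subunits and the inhibitor FBXO5 of the APC (14 of 15 measured) had medians of -0.08, -0.15 and -0.06, from ANAPC2 at -0.53 ± 0.20 to ANAPC13 at 0.05 ± 0.21. ANAPC2 was detected on 3 arrays. Cohesin and its loaders (9 of 11 measured) had medians of -0.26, 0.00 and -0.10, from CDCA5, which protects cohesion, at -0.20 ± 0.21 to WAPL, which releases it, at 0.14 ± 0.29.

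Transcription factors that bind mitotic promoters (13 of 14 measured) had medians of -0.11, -0.13 and -0.08, from LIN54, the MuvB subunit that binds the homology region, at -0.32 ± 0.22 (SE) to NFYB, a subunit of NF-Y, at 0.35 ± 0.21. FOXM1, named here after its values were seen, lay at -0.53, -0.11 and -0.31. The summed raw signal of the epithelial markers moved on another array: its value was 17173 (control), 16814, 12457 and 16703, the lowest with siRNA 2. That of the leukocyte list was 1829, 1914, 2039 and 2167, summed over every probe of its genes, detected or not. Its detected genes were CD14, CD68 and ITGAM. The fibroblast list lay between 772 and 829 and the endothelial list, with no gene detected, between 324 and 352. Their part in the values of the mitotic genes was not tested.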

How the data were processed

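RNA of 4 A549 samples, 1 control and 3 siEPEL, was read on Illumina HumanHT-12 arrays with 47228 probes. The authors deposited raw intensities, the mean bead signal per probe on a linear scale, with BeadStudio named as the tool in the submitters' processing notes. Detection p-values stand beside them, per the file headers, and move in steps of 1 in 770. A second table the authors deposited holds processed intensities. From its values it is linear, background-subtracted and close to quantile-normalized, by steps not given in the sources used here, and it served as an alternative.

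In R 4.3.3, neqc from limma 3.58.1 turned the raw intensities into log2 levels. It estimated the normexp background from the detection p-values, added an offset of 16 and quantile-normalized the arrays. The offset understates changes of dim probes. Probes with a detection p-value under 0.01 on at least 1 array (18200) entered lmFit and eBayes, 2-sided, adjusted by Benjamini-Hochberg over all of them, with 2 residual and 6.83 prior degrees of freedom. A gene is represented by its tested probe with the highest mean. Names came from the platform annotation, updated through RefSeq (0 symbols changed): 30113 probes had 1 gene, 8 several and 17107 none. Of 77 member probes, 68 were tested. With 1 array per siRNA, single ratios have no test, and precision is limited by having 4 arrays. As no separate cultures are named, p-values measure only the spread between these samples, moderated by the prior over all tested probes.

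Members and lists were chosen with earlier results of these data known. All members are named. Levels on every array are given, per functional group, for the 2 lowest and the highest by log2 fold change and for members with probes of opposite sign. Of each other list the lowest and highest are named. The levels of MKI67 and the ratios of the remaining members were added after their values were seen. The fit was tested on simulated data. Alternatives were no background correction, another scaling, offset, detection filter, eBayes prior or probe rule, the authors' table, and leaving out each siRNA.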

Additional observations from a re-analysis of the deposited data

How the results depend on the processing

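The members' median log2 fold change of -0.22 stayed below 0 under every alternative, between -0.25 (median scaling) and -0.21 with all arrays, and between -0.30 and -0.11 when 1 siRNA was left out. The count of probes past the limma threshold was 0 under each alternative that gives a test. With siRNA 1 all members measured were below the control under every alternative that keeps it, with a median between -0.43 and -0.39. With siRNA 2 the count below the control lay between 31 (mean of a gene's probes) and 40 (median scaling), and with siRNA 3 between 43 and 47. Members below the control with every siRNA numbered 27, with a range from 27 to 43 when 1 siRNA was left out (43 without siRNA 2, 34 without siRNA 3), and 37 under median scaling. Fewer siRNAs make this count easier to reach, and the share of all genes under these alternatives is not given here. siRNA 1 was below both other siRNAs in 40 to 46 members, and the 46 came with no detection filter, when 54 members were counted. In the main fit 49 of the 50 members had a log2 fold change below 0, against 5593 of 10921 genes. Of the 50 members, 42 had a log2 fold change below 0 under all alternatives, a count not given here for all genes. The other 8 changed sign: 5 without siRNA 1, 2 without siRNA 2 and 1 with the mean of a gene's probes. Median scaling moved the median of all genes to -0.02. No paired analysis was possible because there is 1 control sample and the labels give it no replicate number. The precision is limited by the 4 arrays, and the 4 members below detection on all arrays could not be compared.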

Other observations

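Individual genes of the mitotic lists departed from their groups on 1 array. CDC23, a core APC subunit, had log2 levels of 10.51 (control), 10.31 (siRNA 1), 9.36 (siRNA 2) and 10.49 (siRNA 3), a log2 ratio of -1.15 with siRNA 2. RBBP4, a histone-binding subunit of MuvB, had a log2 ratio of -0.91 with siRNA 2, against -0.07 and 0.19 with siRNAs 1 and 3. These RBBP4 values come from 1 of its 3 tested probes, the one with the highest mean. Both genes were picked after their values were seen, and with 1 array per siRNA neither difference has a replicate check.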
